A study of Mus musculus with 6 samples.

Results

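The 41 genes here encode enzymes that remove superoxide, peroxides and electrophiles in mouse cells, and the pair of proteins that control many of them. They comprise superoxide dismutases and catalase, glutathione peroxidases, peroxiredoxins, the thioredoxin system, the enzymes that make and recycle glutathione, glutathione transferases, NQO1 and heme oxygenase 1, and NRF2 with its inhibitor KEAP1. Members were chosen by gene symbol, not by a threshold on their values, but with earlier results of these data known. All 41 were found among the 21769 gene identifiers listed in all 6 libraries. Of these, 38 had a mean of at least 1 FPKM (fragments per kilobase of exon, scaled to library depth) over the 6 libraries and entered the test. Gpx3, Slc7a11 and Gstt2 did not.

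The study compared 3T3-L1 adipocytes under chronic intermittent hypoxia (CIH, 3 libraries) with control 3T3-L1 adipocytes (3 libraries), by RNA sequencing. 3T3-L1 is a mouse embryonic fibroblast line that stores fat after hormonal induction. Both groups are labelled WT in genotype and share the same treatment text, namely insulin induction followed by maintenance medium with insulin, and neither gives the oxygen levels or cycle of the hypoxia. The libraries carry numbers 1 to 3 in each group, and the labels do not say whether they came from separate cultures, so the p-values measure the spread between libraries, which may be technical.

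Replicates 1 and 2 were deposited as tables of genes and replicate 3 of each group as tables of transcripts, so CIH 1 and 2 were compared with control 1 and 2, and CIH 3 with control 3 apart from them. The 4 gene tables rested on about 26200000 and 27400000 fragments in CIH 1 and 2 and 25700000 and 28000000 in control 1 and 2, as their smallest steps show. The depth of the replicate 3 tables is unknown. The adipocyte label was checked against 12 white adipocyte markers, whose FPKM summed to 7798 and 6915 in CIH 1 and 2, against 8178 and 8873 in control 1 and 2. A few abundant genes dominate this sum, and falls of single markers are given below. In the replicate 3 tables the same sum was 579.2 in CIH 3, against 28330 in control 3, while 10 preadipocyte and fibroblast markers summed to 6436 in CIH 3, against 949.3 in control 3. CIH 3 thus stood apart from its label, with low adipocyte and high fibroblast markers, and every value that rests on it is given apart from replicates 1 and 2. In bulk RNA, fewer cells of a type and less RNA per cell cannot be told apart.

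Superoxide dismutases turn superoxide into hydrogen peroxide, which catalase, glutathione peroxidases and peroxiredoxins then reduce. Many glutathione peroxidases and transferases spend reduced glutathione, whereas most peroxiredoxins draw on thioredoxin, and the oxidised forms are restored by reductases that use NADPH. KEAP1 holds the transcription factor NRF2 for degradation until oxidants or electrophiles modify it, after which NRF2 binds antioxidant response elements in many of these genes. In fat cells, fatty acid oxidation is a source of peroxides, and lipid peroxidation is one of reactive aldehydes.

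The promoters of 4 members are printed because each holds the core of the antioxidant response element, TGACNNNGC, and each gene was called in replicates 1 and 2, with 3 higher and 1 lower. The sequences are the 250 bases before a start of the gene in the RefSeq table for GRCm38.p6. Txnrd1 and Mgst1 also have other listed starts, whose windows did not hold the motif. All 4 are on the + strand and written 5′ to 3′, with the motif in capitals. In all 4 the motif lies on the opposite strand, so the capitals show the reverse complement of TGACNNNGC. They lie at chr6:138140277-138140526 (Mgst1), chr4:116685349-116685598 (Prdx1), chr10:82858956-82859205 (Txnrd1) and chr3:122245307-122245556 (Gclm).
Mgst1: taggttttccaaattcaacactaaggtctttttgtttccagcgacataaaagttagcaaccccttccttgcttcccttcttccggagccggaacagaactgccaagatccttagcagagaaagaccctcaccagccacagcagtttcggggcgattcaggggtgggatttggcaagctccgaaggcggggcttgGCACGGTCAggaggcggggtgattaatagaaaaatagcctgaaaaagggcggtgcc
Prdx1: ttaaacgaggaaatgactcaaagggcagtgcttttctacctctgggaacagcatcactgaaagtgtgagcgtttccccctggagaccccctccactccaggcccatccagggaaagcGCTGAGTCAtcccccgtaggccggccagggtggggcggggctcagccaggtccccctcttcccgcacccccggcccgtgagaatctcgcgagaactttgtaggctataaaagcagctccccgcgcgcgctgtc
Txnrd1: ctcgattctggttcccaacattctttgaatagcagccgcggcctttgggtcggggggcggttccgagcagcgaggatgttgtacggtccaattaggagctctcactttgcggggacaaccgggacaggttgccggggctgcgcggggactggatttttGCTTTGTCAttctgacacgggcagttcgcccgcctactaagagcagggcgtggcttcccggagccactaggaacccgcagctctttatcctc
Gclm: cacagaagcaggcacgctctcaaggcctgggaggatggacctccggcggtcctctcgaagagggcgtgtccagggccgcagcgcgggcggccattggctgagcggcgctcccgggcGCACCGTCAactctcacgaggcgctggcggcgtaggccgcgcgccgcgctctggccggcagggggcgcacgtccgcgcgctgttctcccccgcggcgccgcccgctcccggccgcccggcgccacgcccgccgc
Read along the printed strand, the motif began 56 bases before the start used in Mgst1, 133 in Prdx1, 92 in Txnrd1 and 134 in Gclm. It was searched on both strands of windows running from 250 bases before to 50 after each start. A gene was counted if any of its windows held the motif. This gave 9 of the 34 members with a promoter entry (26.5%) and 3781 of 27025 genes in the table (14.0%). The motif was held by 3 of 13 members called higher, by 2 of 4 called lower (Gclm and Srxn1) and by 4 of 15 that were not called (Gsta3, Gstm5, Nfe2l2 and Sod1). The match is a description of the letters in this window and was found on both sides of the changes described next.

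In replicates 1 and 2, the members tested were more often called higher than lower under CIH, unlike most lists of other pathway genes given below. Of the 38 members tested, 17 were called higher (44.7%), 5 were called lower (13.2%) and 16 were not called, against 18.2% of all 10976 genes tested called higher and 20.9% called lower. With a replicate block 15 members were higher and 3 lower, against 14.2% and 16.2% of all genes. Without CIH 1 the median log2 change of the members was 0.21, and that of all genes was -0.01. In either direction the main fit of these 4 libraries called 22 members (57.9%), against 39.1% of all genes. A call is an adjusted p under 0.05 from limma, fitted over all of these genes on log2(FPKM + 1). The median log2 change of the members was 0.31, and that of all genes was -0.01. Both CIH libraries lay above both control libraries for 24 members (63.2%), against 35.1% of all genes tested, and below both for 9 (23.7%), against 38.9%.

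The classes did not move alike. Superoxide dismutases with catalase, glutathione peroxidases and peroxiredoxins gave 9 higher calls and no lower call among 14 tested genes. Glutathione synthesis and recycling gave 2 lower calls and no higher call among 4. Of all genes tested, 18.2% were called higher and 20.9% lower, and 4 genes are too few to set against those shares. The members' summed FPKM made up 1.09% and 1.02% of all FPKM in CIH 1 and 2, against 0.901% and 0.91% in control 1 and 2. In the replicate 3 tables the share was 0.514% in CIH 3, against 0.756% in control 3. Their totals were 550322 FPKM in CIH 3 and 850766 FPKM in control 3. The mitochondrial gene mt-Atp8 alone had 32434 FPKM of this in CIH 3 and 136373 FPKM in control 3, against at most 7.88 FPKM in any gene table. The replicate 3 shares therefore depend on that gene as well. White adipocyte markers also differed in replicates 1 and 2, with 6 of 11 tested called lower and none higher. Their median log2 change was -0.35, and the largest falls were in Cfd (-3.47), Retn (-3) and Slc2a4 (-1.88). Preadipocyte and fibroblast markers had 7 of 9 called higher and 2 lower, with a median of 0.68. Their summed level was 648 and 647.1 FPKM in CIH 1 and 2, against 397.7 and 426 FPKM in control 1 and 2. The part of these markers in the members' changes was not tested.

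**Figure D1:**
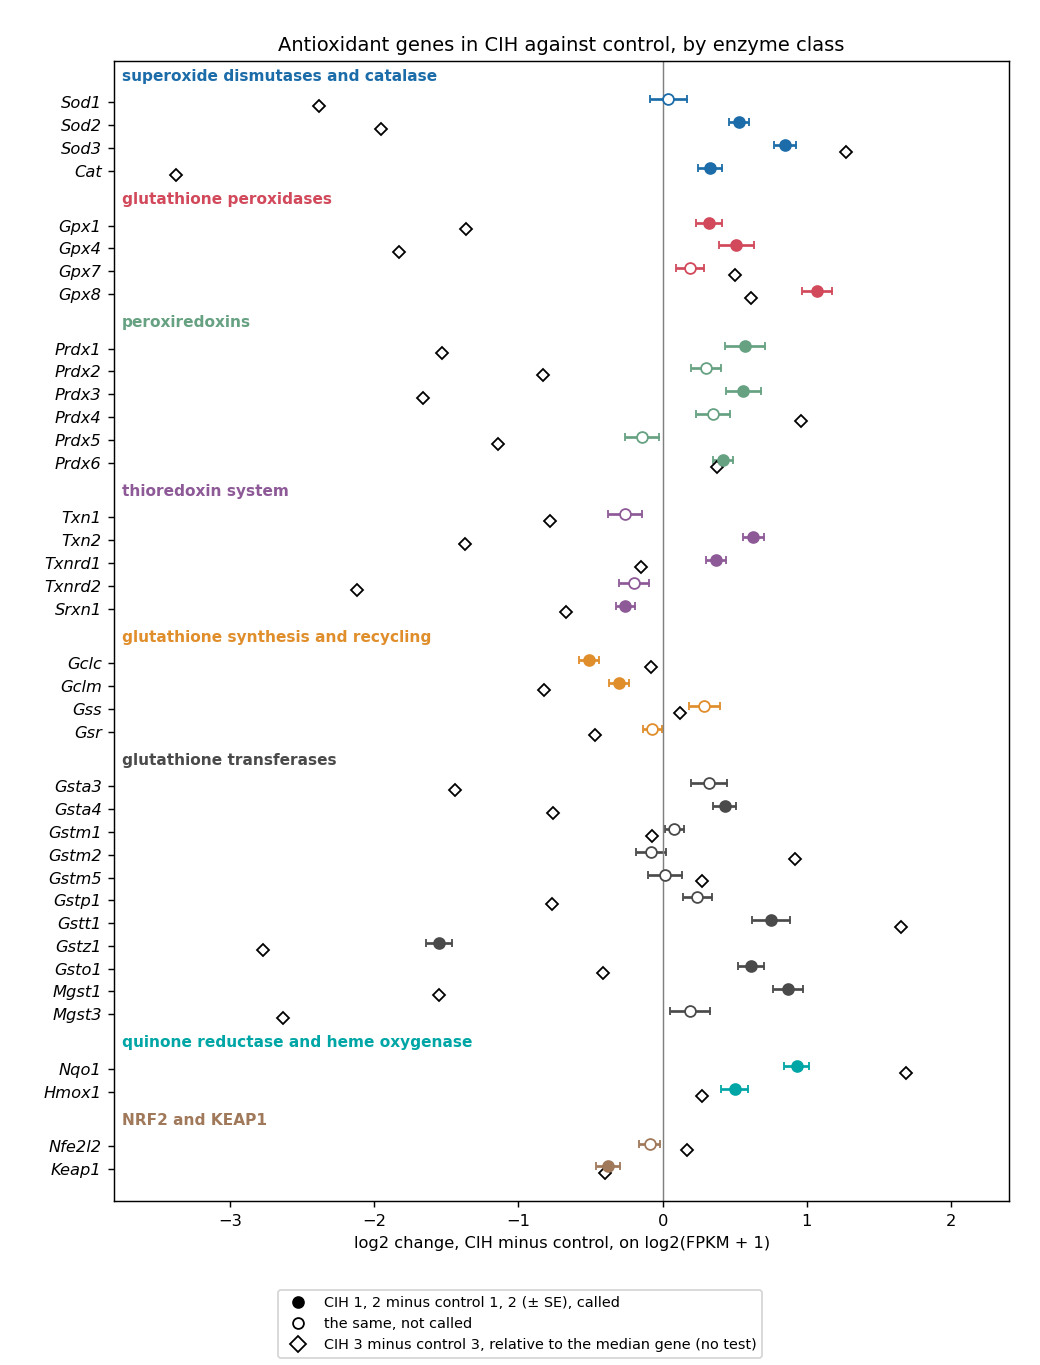
Log2 change of each tested member by class, CIH over control, on log2(FPKM + 1). Circles show replicates 1 and 2 with SE, filled where called (17 higher, 5 lower); diamonds show the single replicate 3 pair relative to the median gene.

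Superoxide dismutases and catalase gave 3 higher calls and none lower among 4 genes. Sod3, the secreted dismutase, had 46.3 and 42.4 FPKM in CIH 1 and 2, against 24.7 and 23.6 FPKM in control 1 and 2. Its log2 change was 0.85 (SE 0.0757, limma adjusted p = 0.00248). Both CIH libraries lay well above both controls, and the groups did not overlap. Sod2, the manganese enzyme of mitochondria, had 39.2 and 37.5 FPKM under CIH, against 25.7 and 26.6 FPKM in controls, a log2 change of 0.53 (SE 0.0665, limma adjusted p = 0.00536). Sod3 and Sod2 thus both rose with non-overlapping groups.

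Cat, which breaks down hydrogen peroxide in peroxisomes, had 224 and 214 FPKM in CIH 1 and 2, against 179.6 and 169.5 FPKM in control 1 and 2, a log2 change of 0.33. Its call was the weakest of the class: it was lost when any 1 of the 4 libraries was left out (limma adjusted p of 0.0844 to 0.158) and with a replicate block (0.0817). Sod1, the copper-zinc enzyme of the cytosol, was not called, with 163.8 and 139.6 FPKM under CIH, against 135.6 and 159.1 FPKM in controls. The Sod1 groups overlapped, and its log2 change was 0.04 (limma adjusted p = 0.819).

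Glutathione peroxidases differ in the residue at the active site, and the codon that sets it is shown for all 5 because the largest rise in this class belonged to a member without selenocysteine. Each line gives the codon in capitals with the 18 bases on either side, from the GENCODE M21 coding sequences. TGA encodes selenocysteine here, and TGT and TGC encode cysteine.
Gpx1: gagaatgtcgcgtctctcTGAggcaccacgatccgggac
Gpx3: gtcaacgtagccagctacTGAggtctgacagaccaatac
Gpx4: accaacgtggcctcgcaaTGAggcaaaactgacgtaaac
Gpx7: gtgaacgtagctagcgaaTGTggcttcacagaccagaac
Gpx8: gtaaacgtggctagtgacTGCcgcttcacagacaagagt
Gpx1, Gpx3 and Gpx4 carry TGA at codons 47, 73 and 129, whereas Gpx7 carries TGT at codon 56 and Gpx8 carries TGC at codon 79. Positions are counted in the longest complete coding sequence of each gene, 253 codons for Gpx4, and may differ in shorter forms.

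Of the 4 glutathione peroxidases tested, 3 were called higher and none lower. Gpx8, an enzyme of the endoplasmic reticulum membrane, had 31.6 and 26.7 FPKM in CIH 1 and 2, against 13.9 and 12.8 FPKM in control 1 and 2. Its log2 change of 1.07 (SE 0.104, limma adjusted p = 0.00299) was the largest rise among the 38 members with a pseudocount of 1, whereas with one of 0.1 Gstt1 (1.1385) lay above Gpx8 (1.1158). Its groups lay far apart, with the lower CIH library well above the higher control. Gpx4, which reduces lipid hydroperoxides in membranes, had 461 and 389 FPKM under CIH, against 305 and 290.4 FPKM in controls, a log2 change of 0.51 (SE 0.121, limma adjusted p = 0.029).

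The Gpx4 groups did not overlap, but its call was lost without CIH 1, control 1 or control 2 (limma adjusted p of 0.0985, 0.0941 and 0.113) and with a replicate block (0.0535). Gpx1, the main cytosolic enzyme, had 245 and 221 FPKM under CIH, against 186.1 and 186.6 FPKM in controls, with a log2 change of 0.32. The Gpx1 call was lost without any 1 library (limma adjusted p of 0.0655 to 0.173) and with a replicate block (0.0991). Gpx7, also of the endoplasmic reticulum, was not called, with 10.2 and 8.74 FPKM under CIH, against 8.20 and 8.09 FPKM in controls (log2 change 0.19). Gpx3, the plasma enzyme, was too low to test at 0.274 and 0.402 FPKM under CIH, against 0.236 and 0.256 FPKM in controls.

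Peroxiredoxins, which reduce peroxides with a reactive cysteine, gave 3 higher calls and none lower among 6. Prdx3, the mitochondrial member, had 243 and 220.3 FPKM in CIH 1 and 2, against 171 and 143 FPKM in control 1 and 2, a log2 change of 0.56 (SE 0.119, limma adjusted p = 0.0212). Prdx1, an abundant cytosolic member, had 211 and 189 FPKM under CIH, against 151 and 120.2 FPKM in controls, a log2 change of 0.57 (SE 0.137, limma adjusted p = 0.0297). Neither gene's groups overlapped, although control 1 lay well above control 2 in both. Both calls held only without control 1 among the 4 single-library omissions, with limma adjusted p up to 0.125 for Prdx1 and 0.0953 for Prdx3.

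Prdx6, a single-cysteine member that also acts on phospholipids, had 35.7 and 33.0 FPKM under CIH, against 25.3 and 25.3 FPKM in controls (log2 change 0.42, SE 0.0708, limma adjusted p = 0.0112). Its groups did not overlap, and its call was lost only without CIH 1 among those omissions (limma adjusted p = 0.0674). The 3 peroxiredoxins that were not called differed in sign. Prdx4, of the endoplasmic reticulum, had 14.6 and 13.1 FPKM under CIH, against 9.59 and 11.8 FPKM in controls (log2 change 0.35). Prdx2, of the cytosol, had a log2 change of 0.30, and Prdx5, found in mitochondria and peroxisomes, had one of -0.14. Prdx2 shares exon bases with Junb on the other strand, and Prdx5 with Trmt112, and the labels do not state whether counting used strand.

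In the thioredoxin system the mitochondrial thioredoxin rose and sulfiredoxin fell, with 2 higher and 1 lower calls among 5 genes. Txn2, the mitochondrial thioredoxin, had 81.4 and 75.6 FPKM in CIH 1 and 2, against 51.3 and 49.7 FPKM in control 1 and 2. Its log2 change was 0.63 (SE 0.0727, limma adjusted p = 0.00454). Both CIH libraries lay well above both controls. Txnrd1, the cytosolic selenoprotein that reduces thioredoxin, had 16.5 and 16.999 FPKM under CIH, against 12.4 and 13.1 FPKM in controls (log2 change 0.37, SE 0.0708, limma adjusted p = 0.0162).

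The Txnrd1 groups did not overlap, but its call was lost without CIH 1, CIH 2 or control 1 (limma adjusted p of 0.0794, 0.0858 and 0.0552). Srxn1, sulfiredoxin, which restores over-oxidised peroxiredoxins of the kind with 2 reactive cysteines, such as the products of Prdx1 and Prdx3, was called lower. It had 44.8 and 42.7 FPKM in CIH 1 and 2, against 52.0 and 52.9 FPKM in control 1 and 2, a log2 change of -0.26 (SE 0.0662, limma adjusted p = 0.0358). The groups did not overlap, yet the call was lost without any 1 library (0.0994 to 0.15) and with a replicate block (0.0829). Txn1, the cytosolic thioredoxin, and Txnrd2, the mitochondrial reductase, were not called, with log2 changes of -0.26 and -0.20.

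Among 4 tested genes of glutathione synthesis and recycling, Gclc and Gclm were called lower and none was called higher. Gclc, the catalytic subunit of the rate-limiting enzyme of glutathione synthesis, had 12.0 and 12.0 FPKM in CIH 1 and 2, against 17.8 and 17.3 FPKM in control 1 and 2. Its log2 change was -0.51 (SE 0.0666, limma adjusted p = 0.00612), with groups far apart relative to the spread within each. Gclm, the modifier subunit of the same enzyme, had 10.0 and 9.88 FPKM under CIH, against 12.6 and 12.4 FPKM in controls, a log2 change of -0.30 (SE 0.0688, limma adjusted p = 0.0259). The Gclm groups did not overlap, but its call was lost without any 1 library (limma adjusted p of 0.0632 to 0.119) and with a replicate block (0.0632).

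The Gclm fall also carries a counting limit, since the gene shares exon bases with Gm6061 on its own strand and with Gm17494. Gss, which completes glutathione, had 6.94 and 6.41 FPKM under CIH, against 4.82 and 5.79 FPKM in controls, with both CIH libraries above both controls, and was not called (log2 change 0.29). Gsr, which reduces oxidised glutathione, was not called either, at 22.9 and 23.9 FPKM under CIH, against 24.4 and 24.9 FPKM in controls. Slc7a11, the cystine importer, was too low to test at 0.415 and 0.516 FPKM in CIH 1 and 2, against 0.4996 and 0.439 FPKM in control 1 and 2. Its groups overlapped.

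Glutathione transferases held both the strongest fall and some of the strongest rises, with 4 called higher, 1 lower and 6 not called among 11. Gstz1, which works in tyrosine breakdown as maleylacetoacetate isomerase, had 15.7 and 14.2 FPKM in CIH 1 and 2, against 48.3 and 43.6 FPKM in control 1 and 2. Its log2 change was -1.55 (SE 0.0883, limma adjusted p = 0.000945), 2.94-fold lower on the log2(FPKM + 1) scale. Both CIH libraries lay far below both controls, and no other member had a lower adjusted p. Gstz1 shares 465 exon bases with Pomt2 on the other strand.

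Mgst1, a microsomal transferase with peroxidase activity and one of the most abundant members, had 469 and 421 FPKM in CIH 1 and 2, against 251 and 234 FPKM in control 1 and 2. It averaged 445 ± 34.2 FPKM under CIH and 242 ± 11.9 FPKM in controls (SD, n = 2 each), a log2 change of 0.87 (SE 0.106, limma adjusted p = 0.00503). The groups were widely apart, and its promoter is the first of the 4 printed. Gsto1, an omega-class transferase, had 74.8 and 66.3 FPKM under CIH, against 44.1 and 47.7 FPKM in controls (log2 change 0.61, SE 0.0901, limma adjusted p = 0.00807). Gstt1, a theta-class transferase, had 2.95 and 2.08 FPKM under CIH, against 1.04 and 1.10 FPKM in controls (log2 change 0.75, SE 0.13, limma adjusted p = 0.0122).

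Neither the Gsto1 nor the Gstt1 groups overlapped, and Gstt1 rested on the fewest fragments of any tested member, about 118 and 87 in CIH 1 and 2, against 41 and 47 in control 1 and 2. Gsta4, which conjugates 4-hydroxynonenal from lipid peroxidation, had 25.3 and 23.5 FPKM under CIH, against 17.1 and 18.6 FPKM in controls (log2 change 0.43, SE 0.0796, limma adjusted p = 0.0146). Its call was lost only without CIH 1 among the single-library omissions (limma adjusted p = 0.0857). The transferases that were not called had log2 changes of 0.32 (Gsta3), 0.24 (Gstp1), 0.19 (Mgst3), 0.08 (Gstm1), 0.02 (Gstm5) and -0.08 (Gstm2). Gstt2 was too low to test at 0.322 and 0.360 FPKM under CIH, against 0.580 and 0.473 FPKM in controls. Near-identical copies in the alpha, mu and pi families can share fragments, so values of single members of those families are uncertain.

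**Figure D2:**
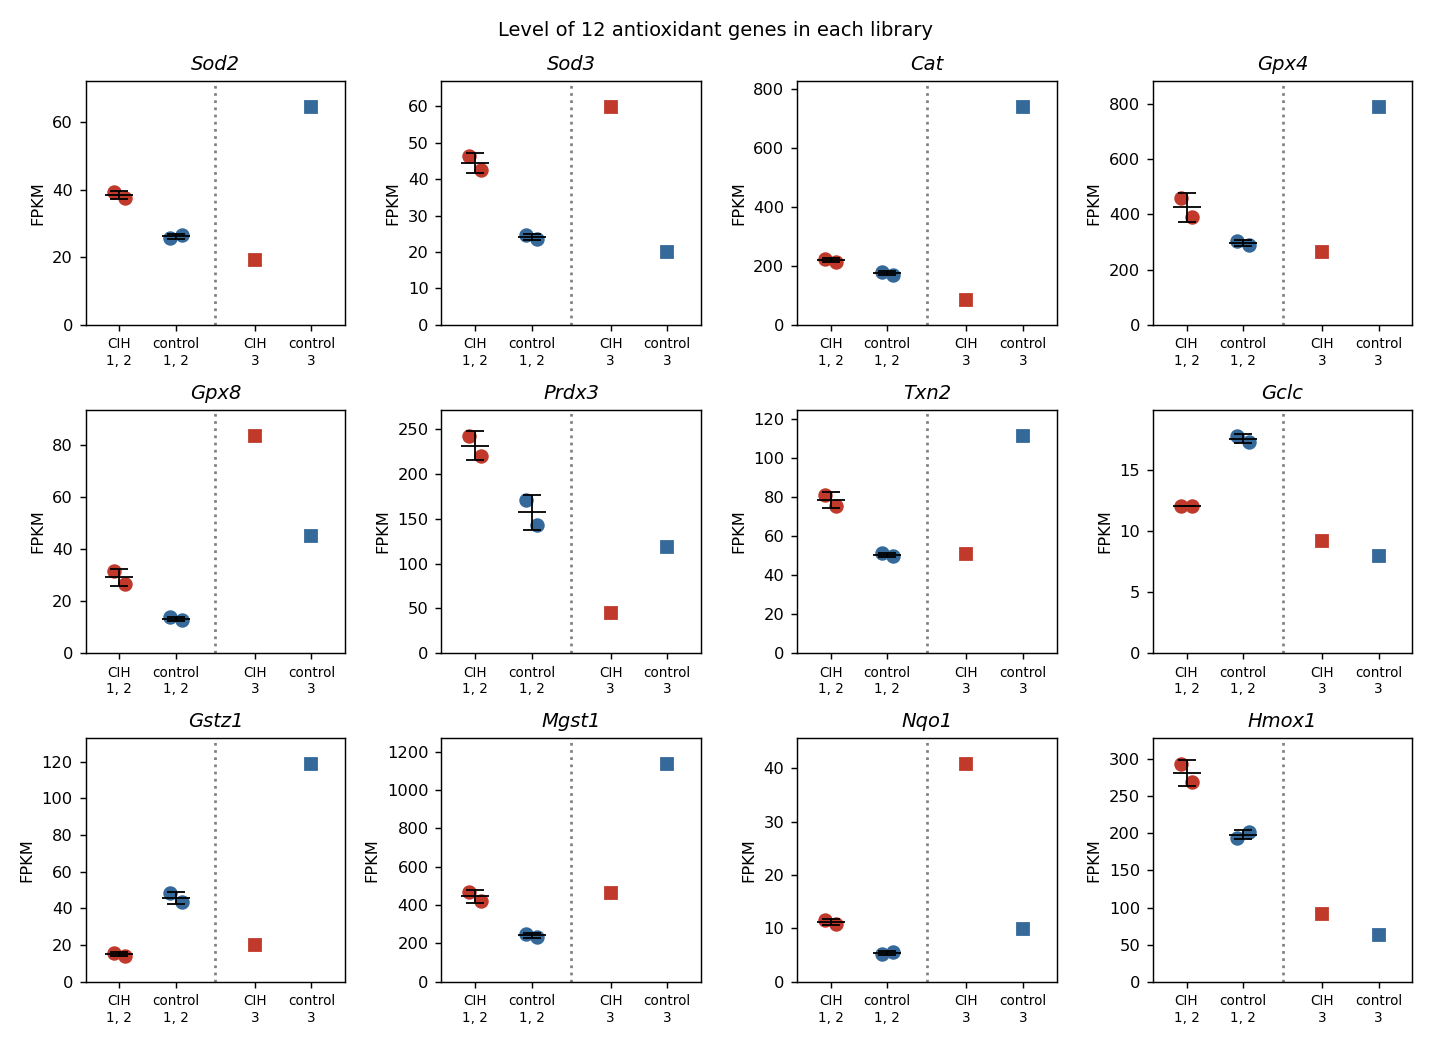
FPKM of 12 members in each library, CIH left of control, with mean and SD for replicates 1 and 2. Gstz1 lies at 15.7 and 14.2 in CIH 1 and 2, far below 48.3 and 43.6 in control 1 and 2, whereas Mgst1, Gpx8 and Nqo1 lie above their controls in replicates 1 and 2; in the replicate 3 pair Mgst1 is at 464 in CIH 3, against 1135 in control 3.

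Nqo1 and Hmox1 were both called higher. Nqo1, which reduces quinones with NADPH or NADH, had 11.5 and 10.7 FPKM in CIH 1 and 2, against 5.10 and 5.61 FPKM in control 1 and 2. Its log2 change was 0.93 (SE 0.0868, limma adjusted p = 0.00273), 1.91-fold higher on the log2(FPKM + 1) scale, with no overlap between groups. Hmox1, which degrades heme, had 293 and 269 FPKM under CIH, against 194 and 202 FPKM in controls (log2 change 0.50, SE 0.0918, limma adjusted p = 0.0143). The Hmox1 groups did not overlap either, but its call was lost without CIH 1 or control 1 (limma adjusted p of 0.0653 and 0.0746).

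Of the regulators, Nfe2l2 was not called and Keap1 was called lower. Nfe2l2, which encodes NRF2, had 18.6 and 17.7 FPKM in CIH 1 and 2, against 20.1 and 18.8 FPKM in control 1 and 2, and was not called (log2 change -0.09, limma adjusted p = 0.349). Keap1, its inhibitor, had 14.3 and 14.1 FPKM under CIH, against 17.8 and 20.0 FPKM in controls, a log2 change of -0.38 (SE 0.0816, limma adjusted p = 0.0215). The Keap1 groups did not overlap, its call was lost without CIH 1, CIH 2 or control 2 (limma adjusted p of 0.0965, 0.0935 and 0.0595), and the gene overlaps Gm16754. NRF2 is controlled largely at the protein level, which RNA sequencing does not measure.

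By level, the order in control 1 and 2 was led by Mgst3 (399 FPKM), Gpx4 (298 FPKM), Mgst1 (242 FPKM), Hmox1 (198 FPKM) and Gpx1 (186 FPKM). Hmox1 had 194 and 202 FPKM in these libraries and Gpx1 had 186.1 and 186.6 FPKM, so this pair lay close, Gstp1 at 174 and 191 FPKM lay within the same range as Gpx1, and Mgst3 at 378 and 421 FPKM lay above Gpx4 at 305 and 290.4 FPKM. The lowest member was Gpx3 at 0.246 FPKM. FPKM is a level per kilobase of exon, so these levels may be set side by side between genes within the gene tables.

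In the replicate 3 pair the picture differed, and no test was possible with 1 library per group. The differences are given relative to the median gene, whose log2(FPKM + 1) was 0.26 higher in CIH 3 than in control 3 as deposited. Of 38 members, 3 were at least 2-fold higher in CIH 3 (7.89%) and 14 at least 2-fold lower (36.8%), against 16.1% and 15.6% of all genes tested. The members' median was -0.72. Scaling by each library's total, which includes the mt-Atp8 level given above, instead moved all genes up together, with the median gene at 0.84. It put 11 members (28.9%) at least 2-fold higher and 6 (15.8%) lower, against 42.3% and 6.11% of all genes tested.

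Sod3, Gstt1 and Nqo1 were called higher in replicates 1 and 2 and were also the 3 members at least 2-fold higher in CIH 3, which is 7.89% of the 38, against 4.68% of all genes tested. Sod3 had 59.8 FPKM in CIH 3, against 20.0 FPKM in control 3, a relative log2 difference of 1.27. Nqo1 had 40.8 FPKM in CIH 3, against 9.80 FPKM in control 3 (1.69), and Gstt1 had 9.94 FPKM in CIH 3, against 1.90 FPKM in control 3 (1.65). Gstz1 was the only member called lower in replicates 1 and 2 that was also at least 2-fold lower in CIH 3, at 20.1 FPKM in CIH 3, against 119 FPKM in control 3 (-2.77), so 2.63% of the members were low in both comparisons, against 4.99% of all genes. No member called lower was at least 2-fold higher in CIH 3, against 2.65% of all genes.

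Another 8 members called higher in replicates 1 and 2 were at least 2-fold lower in CIH 3, which is 21.1% of the 38, against 3.08% of all genes tested. Cat had 84.8 FPKM in CIH 3, against 739 FPKM in control 3 (relative log2 difference -3.37). Sod2 had 19.3 FPKM in CIH 3, against 64.4 FPKM in control 3 (-1.95). The others were Gpx4 (-1.83), Prdx3 (-1.66), Mgst1 (-1.55), Prdx1 (-1.53), Txn2 (-1.37) and Gpx1 (-1.36), all relative log2 differences.

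Members that were not called in replicates 1 and 2 also lay low in CIH 3. Mgst3 had 67.7 FPKM in CIH 3, against 352 FPKM in control 3 (relative log2 difference -2.63). Sod1 had 252 FPKM in CIH 3, against 1096 FPKM in control 3 (-2.38), and Txnrd2 had 3.21 FPKM in CIH 3, against 14.2 FPKM in control 3 (-2.12). Gsta3 (-1.44) and Prdx5 (-1.14) were past 2-fold lower too. The other tested members lay between -0.83 (Prdx2) and 0.96 (Prdx4).

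None of the 4 tested genes of glutathione synthesis and recycling was past 2-fold in the replicate 3 pair when entries were summed. Gclc had 9.14 FPKM in CIH 3, against 7.93 FPKM in control 3, and Gclm had 26.6 FPKM in CIH 3, against 39.5 FPKM in control 3. Their relative log2 differences were -0.08 and -0.82, and with the largest entry of each gene in place of the sum that of Gclm was -1.22. Of the members too low to test, Slc7a11 had 1.45 FPKM in CIH 3, against 0.363 FPKM in control 3, Gstt2 had 1.03 FPKM in CIH 3, against 0.332 FPKM in control 3, and Gpx3 had 0.621 FPKM in CIH 3, against 0.337 FPKM in control 3. Each of these lay higher in CIH 3.

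Markers of cell state also differed in the replicate 3 pair. All 11 tested white adipocyte markers were at least 2-fold lower in CIH 3, with a median of -5.61, and all 9 tested preadipocyte and fibroblast markers were at least 2-fold higher, with a median of 2.77. No adipocyte or fibroblast marker was at 0 in all 6 libraries. The part of these markers in the replicate 3 differences was not tested.

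Markers of other cell types were low. Macrophage markers summed to between 7.61 and 9.85 FPKM over the 3 CIH libraries and between 6.07 and 9.23 FPKM over the 3 control libraries, with Adgre1 at 0 in all 6. Endothelial markers summed to at most 0.719 FPKM in CIH and 0.473 FPKM in control libraries. Erythroid markers summed to at most 1.51 FPKM, in CIH 3, and were at 0 in every control library. Epithelial markers summed to 0.415, 0.245 and 0.330 FPKM in CIH 1, 2 and 3, against 8.71, 9.49 and 1.56 FPKM in control 1, 2 and 3, with Epcam at 0 in all 6. Of the epithelial markers tested, Krt8 and Krt18 were called lower in replicates 1 and 2 (log2 changes -2.65 and -1.71), and their part in the members' changes was not tested.

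**Figure D3:**
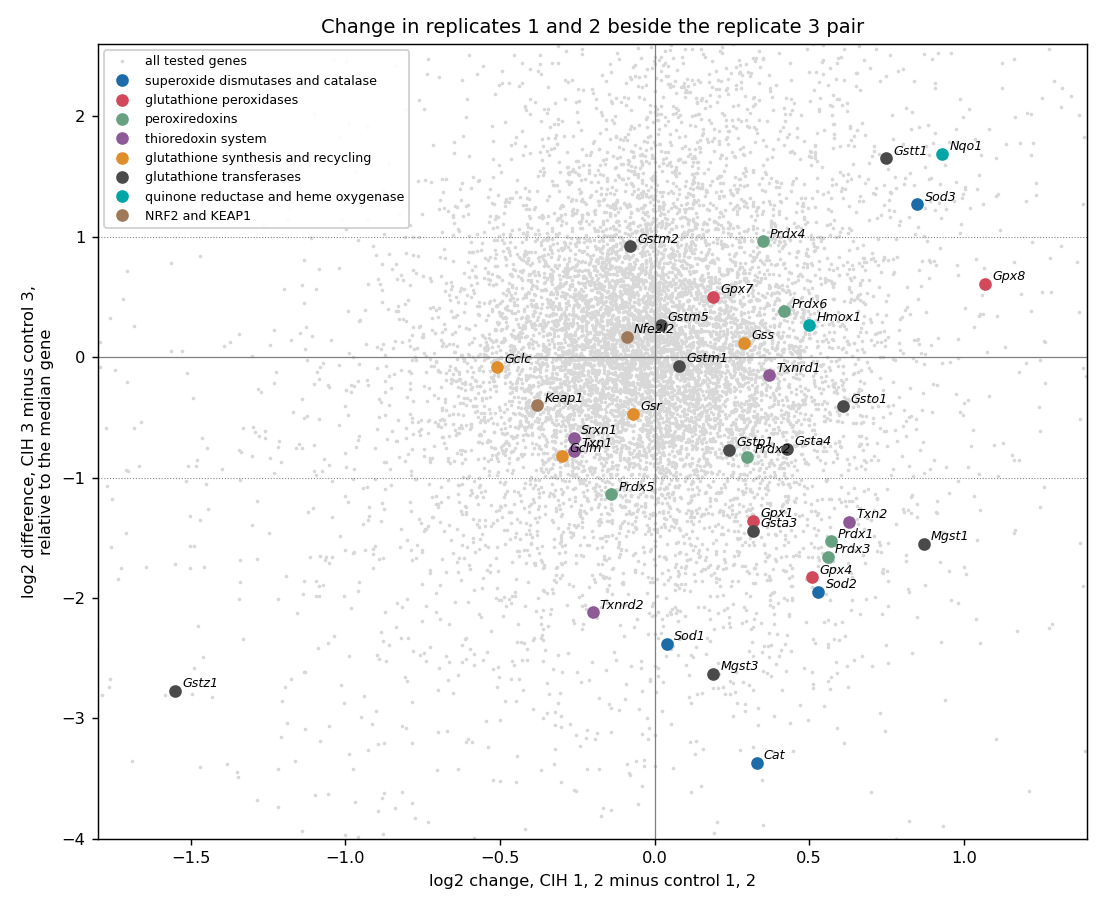
Log2 change in replicates 1 and 2 (x axis) against the relative log2 difference of the replicate 3 pair (y axis), CIH over control, members in colour and all tested genes in grey, with grey genes beyond the axes not drawn. Of the members called higher on the x axis, 3 lie at least 2-fold up on the y axis and 8 at least 2-fold down.

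A fit of all 6 libraries called no member. With table type (genes or transcripts) as a covariate, limma called 20 genes higher and 43 lower over all genes (0.574% together) and 0 members, of which 11 had an unadjusted p under 0.05. With group alone it called 0 genes in either direction, with 490 genes and 2 members at an unadjusted p under 0.05. With the replicate number as a block it also called 0 genes, the lowest adjusted p being 0.284, with 1123 genes and 6 members at an unadjusted p under 0.05. The member counts of replicates 1 and 2 thus describe those 4 libraries.

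Other genes of the pathway were read from lists chosen by function, in replicates 1 and 2 unless stated, and their counts stand against 18.2% of all genes tested called higher and 20.9% called lower. More lower than higher calls were found in 6 of the 8 lists. NADPH supply, on which both glutathione and thioredoxin depend, had 2 of 16 called higher and 5 lower, with Me2 (malic enzyme, log2 change 0.64) and Mthfd1 (0.58) up and Aldh1l1 (-2.50), Tkt (-1.05) and Mthfd2 (-0.58) down. Glutathione turnover and export had 1 of 17 called higher, Abcc5 (0.45), and 6 lower, led by Dpep1 (-1.23), Hagh (-1.04) and Chac1 (-0.92), which degrades glutathione. Glutaredoxins and thioredoxin-like proteins had 1 of 24 higher, Tmx2 (0.66), and 5 lower, a share close to that of all genes, led by Txnip (-0.83), the inhibitor of thioredoxin, which had 240 and 244 FPKM in CIH 1 and 2, against 430 and 430 FPKM in control 1 and 2. The replicate 3 pair ran the other way, with 499.9 FPKM in CIH 3, against 182.5 FPKM in control 3.

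The list of other NRF2 targets had 8 of 19 called higher, 2 lower and 9 not called. Cbr3, a carbonyl reductase, had a log2 change of 1.28, Fth1, the ferritin heavy chain, 1.26 and Akr1b3, an aldose reductase, 1.17, while Cbr1 (-1.09) and Aldh3a2 (-0.51) fell. Cbr1 and Cbr3, which encode related carbonyl reductases, thus moved in opposite directions in replicates 1 and 2. In the replicate 3 pair Cbr1 (-1.91), Cbr3 (-2.25) and Akr1b3 (-2.28) all had relative log2 differences below 0. NRF2 partners and regulators had 0 of 15 called higher and 2 lower, Maff (-1.46), a small MAF partner, and Fbxw11 (-0.26), both shares below those of all genes. These lists' median log2 changes were 0.29 for the NRF2 targets and -0.05 for the partners, against -0.01 over all genes.

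The remaining lists were mixed. Selenoproteins and their synthesis had 4 of 18 called higher, led by Selenoh (0.89), Selenof (0.66) and Selenow (0.48), and 2 lower, Selenoi (-0.27) and Selenbp1 (-3.33), a selenium-binding protein that is not a selenoprotein. Other glutathione transferases and peroxidases had 1 of 7 higher, Eef1g (0.48), an elongation factor subunit with a transferase-like domain, and 3 lower, Gstk1 (-0.57), Gstt3 (-0.52) and Gsto2 (-0.52). Superoxide and peroxide sources and metal buffers had 2 of 15 higher, Park7 (0.63) and Sesn3 (0.55), and 9 lower, led by the metallothioneins Mt1 (-1.55) and Mt2 (-1.48) and by Ero1l (-1.29), an oxidase of the endoplasmic reticulum that makes hydrogen peroxide.

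**Figure D4:**
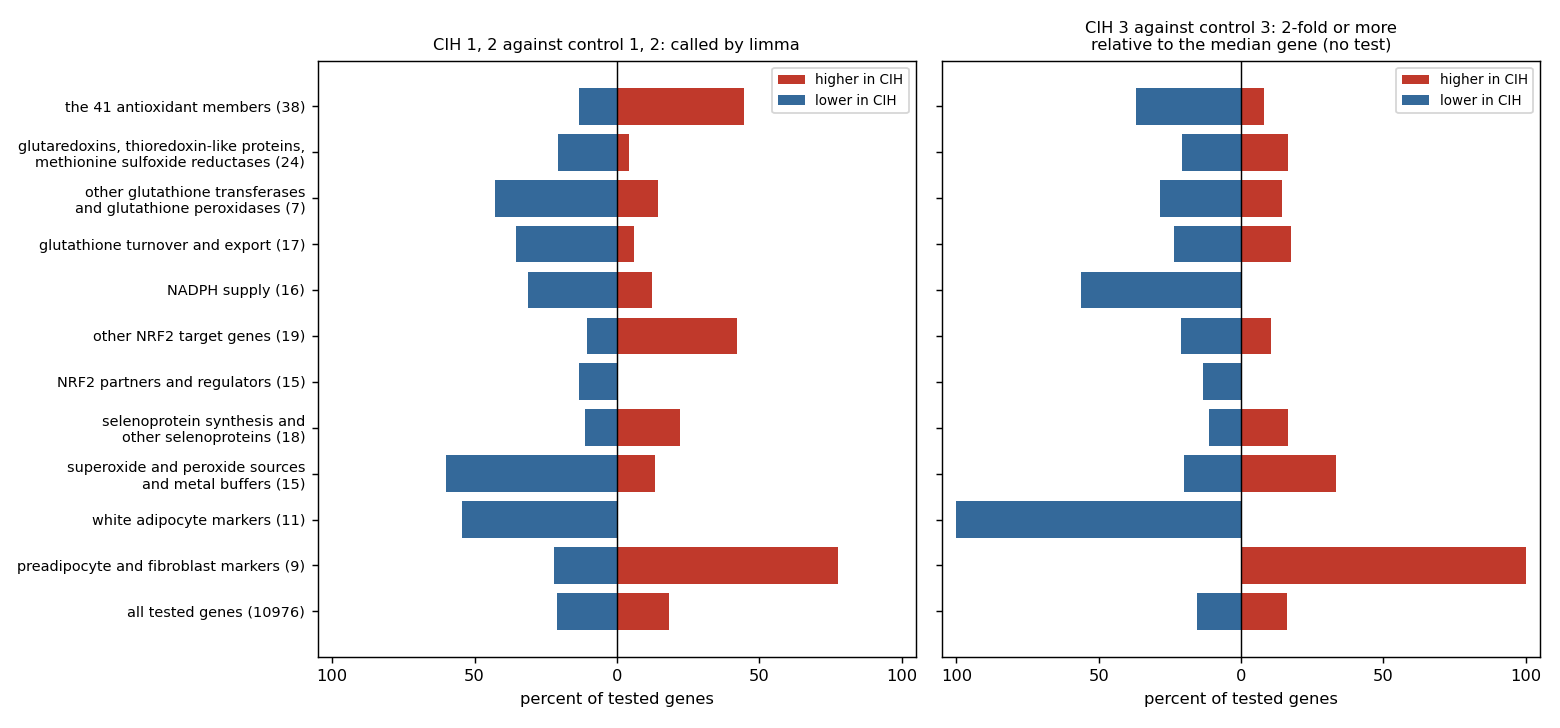
Percent of tested genes called higher (right) and lower (left) in each list of the pathway, in replicates 1 and 2, and percent at least 2-fold higher or lower in the replicate 3 pair. In replicates 1 and 2, 44.7% of the members were called higher and 13.2% lower, against 18.2% and 20.9% of all tested genes; the marker lists are shown for comparison.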

How the data were processed

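RNA was sequenced from 3 CIH and 3 control libraries of 3T3-L1 adipocytes, made with a directional kit per the labels' protocols. The authors deposited FPKM values for each library, a unit read from the values, as gene tables for replicates 1 and 2 and as transcript tables for replicate 3. The submitters' processing notes name the build GRCm38, featureCounts 1.5.0-p3 and DESeq 1.8.3, with no role stated, and no aligner is named there. Repeated identifiers of replicate 3 were summed per gene. Replicates 1 and 2 were tested with limma 3.58.1 (R 4.3.3, moderated test with a mean trend, two-sided) on log2(FPKM + 1) over genes averaging 1 FPKM or more in the 6 libraries, with Benjamini-Hochberg adjustment and a threshold of 0.05. This pseudocount understates changes of low genes. Replicate 3 was given as a log2 difference minus the median of tested genes, with 1 or more counted as 2-fold. FPKM in the gene tables were whole-fragment steps for 98.4% to 98.6% of genes below 50 fragments, within 0.05 of a whole number. Values were joined in Python 3.11.15, and the fit was tested on simulated data.

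All 41 members are accounted for, with log2 change, SE and adjusted p for members called with a change of at least 0.5 or against their class, and for some others. Of other lists, at most the 3 called genes with the largest change in each direction are named. Members and lists were chosen with earlier results of these data known. Same-numbered libraries deviated together from their group means (r of 0.529, 0.587 and 0.581 over the 3 numbers and 6 libraries). The main fit did not pair them. Among the limma fits, same-numbered libraries were paired only where a replicate block is named. Replicate 3 was a transcript table in both groups, so these r values cannot tell pairing from table type. Within the 4 gene tables r was -0.178. Alternatives changed the pseudocount, filter, scaling, block, libraries and entries summed. Symbols and exon overlaps came from GENCODE M21, and promoters from RefSeq.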

Additional observations from a re-analysis of the deposited data

How the results depend on the processing

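Leaving out 1 of the 4 gene-table libraries in turn, which leaves a group with 1 library assumed to vary like the other group's, gave 827 to 1736 genes higher and 1038 to 1946 lower over all genes. It gave 8 to 14 members higher and 2 to 3 lower, with fewest higher without CIH 1, and 10 of the 22 calls held in all 4 omissions with the sign kept in all. A replicate block gave 15 members higher and 3 lower (all genes 14.2% and 16.2%). It ended the calls of Cat, Gpx1, Gpx4, Srxn1 and Gclm and added Gsta3. Crossed pairing, chosen after seeing the data, gave 19 members higher and 5 lower (all genes 19.5% and 21.6%). Over all 6 libraries, 0 genes were called higher and 0 lower with group alone, and 20 higher and 43 lower when the table type was a covariate, with 0 members higher and 0 lower in either. There the log2 changes reversed in both fits for Sod1 (-0.68), Sod2 (-0.21), Cat (-0.82), Gpx1 (-0.15), Gpx4 (-0.18), Prdx1 (-0.0437), Prdx3 (-0.0921), Gsta3 (-0.18), Gstm2 (0.34), Gstp1 (-0.0105), Mgst3 (-0.66) and Nfe2l2 (0.0826). The cause was not tested.

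Scaling by totals moved the median of all genes to -0.10 in replicates 1 and 2, gave 14 members higher and 6 lower (all genes 12.9% and 27.7%), and reversed Sod1 (-0.075), Gstm1 (-0.0383) and Gstm5 (-0.0846). Leaving out 1 library gave -0.0734 to 0.156 for Sod1, -0.185 to 0.0256 for Gstm2 and -0.126 to 0.17 for Gstm5. In the replicate 3 pair, 5 members were at least 2-fold higher and 13 lower as deposited (all genes 21.8% and 11.8%), 11 and 6 after scaling by totals (42.3% and 6.11%), and 4 and 16 with the largest entry (15.6% and 15.5%). A pseudocount of 0.1, no filter, a filter on the gene tables, and scaling by median of ratios or upper quartile left 15 to 19 members higher and 4 to 5 lower. Over all genes these settings gave 12.6% to 22.6% higher and 14.3% to 21.7% lower. Cat was lost with no filter and by totals, Gpx1 also with the pseudocount of 0.1, Txnrd1 by totals and Srxn1 by upper quartile. The unknown depth of the replicate 3 tables limits what they show for low members.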

Other observations

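Chosen after the values were seen, the members were also read by compartment in the replicate 3 pair. In the endoplasmic reticulum, relative log2 differences were 0.50 (Gpx7), 0.61 (Gpx8) and 0.96 (Prdx4) but -1.55 and -2.63 for the microsomal transferases Mgst1 and Mgst3. Among mitochondrial members they were -1.95 (Sod2), -1.66 (Prdx3), -1.37 (Txn2), -2.12 (Txnrd2) and -1.14 (Prdx5, also peroxisomal). In replicates 1 and 2 the log2 changes of these mitochondrial members were 0.53 (Sod2), 0.56 (Prdx3), 0.63 (Txn2), -0.20 (Txnrd2) and -0.14 (Prdx5).

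Some levels differed widely between the kinds of table. Nnt, the mitochondrial transhydrogenase that supplies NADPH, had 0.0489 and 0.0207 FPKM in CIH 1 and 2 and 34.8 FPKM in CIH 3, against 0.0497 and 0.0102 FPKM in control 1 and 2 and 18.4 FPKM in control 3. Mt2 had 3.58 and 2.23 FPKM in CIH 1 and 2 and 494 FPKM in CIH 3, against 10.4 and 9.11 FPKM in control 1 and 2 and 772 FPKM in control 3. Levels were therefore compared within a kind of table, except in the filter and the fits that used all 6 libraries.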
